A study of Mus musculus with 4 samples.

Results

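Cluster 1 is a macrophage population of the mouse atherosclerotic aorta that is named here after Cd72 and Cx3cr1. Its members are the cells that the authors' deposited annotation puts in cluster 1, and they number 543 of 3002 myeloid cells, or 18.1%, in a set of 14 clusters numbered 0 to 13. The cells came from the aortas of 6 Apoe-/- mice, which lack the lipid carrier apolipoprotein E, after 13 weeks of western diet, and were sorted as live CD45+ leukocytes before single-cell RNA sequencing. All mice carried the deletion and ate the same diet, so there is no group without plaque to compare with. Cells were loaded as 2 biological replicates of 2 libraries each, called 1-1, 1-2, 2-1 and 2-2. The labels do not give how the mice were divided over the replicates, nor the age or sex of the animals. The other clusters used as background are 0, with 635 cells, 2, with 347 cells, and 5, with 209 cells.

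Macrophages in an atherosclerotic wall are a mixture of long-lived resident cells, which typically carry Lyve1, Folr2 and Cd163, and cells that derive from blood monocytes, which enter through the receptor Ccr2. Cells that take up much lipid become foamy and switch on genes of lipid handling such as Trem2, Lpl and Gpnmb. Cd72 is an inhibitory receptor best known from B cells and binds the semaphorin Sema4d. Cx3cr1 is the receptor of the chemokine fractalkine and is abundant on microglia, on non-classical monocytes and on several tissue macrophages. Myeloid promoters often hold sites of PU.1, a transcription factor that all macrophages need.

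The promoters of 2 genes the results turn on, Cd72 and the elastase gene Mmp12, are shown because both carry the letters of a PU.1 site and both were higher in cluster 1 than in each background cluster. The sequences come from the RefSeq table on build GRCm38.p6. They are written 5′ to 3′ on the strand of the gene, end at the last base before the gene start, and leave out bases inside annotated exons. Capitals mark GAGGAA read on either strand, here as TTCCTC. The match lies 45 bases before the end of the Cd72 window (chr4:43454629-43454876, minus strand) and 70 bases before the end of the Mmp12 window (chr9:7344147-7344380, plus strand).
Cd72: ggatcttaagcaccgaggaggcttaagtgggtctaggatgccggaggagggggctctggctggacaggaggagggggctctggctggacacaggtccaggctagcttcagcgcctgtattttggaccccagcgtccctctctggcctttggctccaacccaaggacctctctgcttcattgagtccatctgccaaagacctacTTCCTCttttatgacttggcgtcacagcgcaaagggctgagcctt
Mmp12: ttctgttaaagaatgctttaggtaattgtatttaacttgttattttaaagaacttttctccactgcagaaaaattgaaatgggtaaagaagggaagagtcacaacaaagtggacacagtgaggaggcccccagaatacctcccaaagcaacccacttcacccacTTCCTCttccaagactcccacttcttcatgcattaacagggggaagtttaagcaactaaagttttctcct
The 250 bases before the start of Ms4a7, another marker of the cluster, hold no such match. Of 32851 promoters in the table, 23.3% hold GAGGAA on either strand within the same length, and of the 26 genes with a promoter among the 38 described below, 11 do. The AP-1 letters TGANTCA stand in 6.75% of all promoters and in 5 of the 26, and TATAAA stands in 12.4% of all and in 1 of the 26. No overlap between these motifs was removed, and a match of letters is a description of the sequence only.

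Cluster 1 was well covered in every library. It held 53 of 236 cells in library 1-1 (22.5%, exact 95% binomial interval 17.3 to 28.3), 251 of 1231 in 1-2 (20.4%, 18.2 to 22.8), 78 of 550 in 2-1 (14.2%, 11.4 to 17.4) and 161 of 985 in 2-2 (16.3%, 14.1 to 18.8). The mean share was 18.3% ± 3.76 (SD, n = 4 libraries), and the libraries of replicate 1 lay above those of replicate 2. Summed over its cells, the cluster had 3163740 unique molecular identifiers (UMIs, one for each captured transcript molecule), 1680416 in replicate 1 and 1483324 in replicate 2. The median cell had 5115 UMIs and 1704 genes, against 4404 UMIs in cluster 0, 4231 in cluster 2 and 5859 in cluster 5. A median of 4.47% of UMIs was mitochondrial. No cell barcode was shared between libraries.

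Levels below are UMIs per 1000000 UMIs of the cluster (CPM), as mean ± SD over the 2 biological replicates (n = 2). Differences are log2 fold changes with their standard errors from edgeR's quasi-likelihood test on the summed counts, and a gene was called where the Benjamini-Hochberg adjusted p was under 0.05 and the log2 fold change was at least 1 in size. The clusters were drawn from these same counts, so calls between clusters describe them and are no independent test. The background mean in these fits is the mean of the 3 clusters' log2 levels with equal weight, so a gene that is very low in clusters 0 and 2 can lie above it while cluster 5 exceeds cluster 1. Against the mean of clusters 0, 2 and 5, 257 of 8006 genes tested were called higher in cluster 1 (3.21%) and 146 lower (1.82%). Single comparisons called 512 higher and 553 lower than cluster 0 (6.40% and 6.91%), 357 and 397 against cluster 2 (4.46% and 4.96%), and 316 and 288 against cluster 5 (3.95% and 3.60%).

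Of the 4 genes that mark the cluster, Cd72 separated it most evenly. Cd72 (chr4:43446462-43454628, GRCm38) had 673 CPM in library 1-1, 564 in 1-2, 721 in 2-1 and 703 in 2-2. No library of clusters 0, 2 or 5 exceeded 179 CPM, so the groups did not overlap. The log2 fold change of Cd72 was 2.40 ± 0.10 against the mean of the 3 clusters, and 2.47, 2.45 and 2.27 against clusters 0, 2 and 5 in turn. Outside the background, cluster 4 had 333 CPM of Cd72, so the gene was not confined to cluster 1.

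Cx3cr1 (chr9:119901616-120069879) had 338, 246, 297 and 305 CPM in libraries 1-1, 1-2, 2-1 and 2-2, and at most 164 CPM in any background library. Its log2 fold change was 1.35 ± 0.11 against the mean and lay between 1.18 and 1.5 against the single clusters. Ms4a7, a tetraspan surface protein of macrophages (chr19:11321039-11336146), had 1119, 1183, 1268 and 1290.3 CPM in the same order. It was higher than in cluster 0 by 1.47 and than in cluster 5 by 2.24 (log2), while the difference of 0.94 from cluster 2 fell short of the fold threshold. Vegfa, the main growth factor of blood vessels (chr17:46016993-46032369), had 140.4, 126, 65.4 and 88.4 CPM in cluster 1. That was above clusters 0 and 2, at 5.99 ± 7.75 and 2.54 ± 2.04 CPM, but below cluster 5, at 436 ± 7.78 CPM, by a log2 fold change of -2.10. Vegfa therefore goes against its use as a marker of cluster 1, while Cd72 and Cx3cr1 were higher than in all 3 background clusters.

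**Figure D1:**
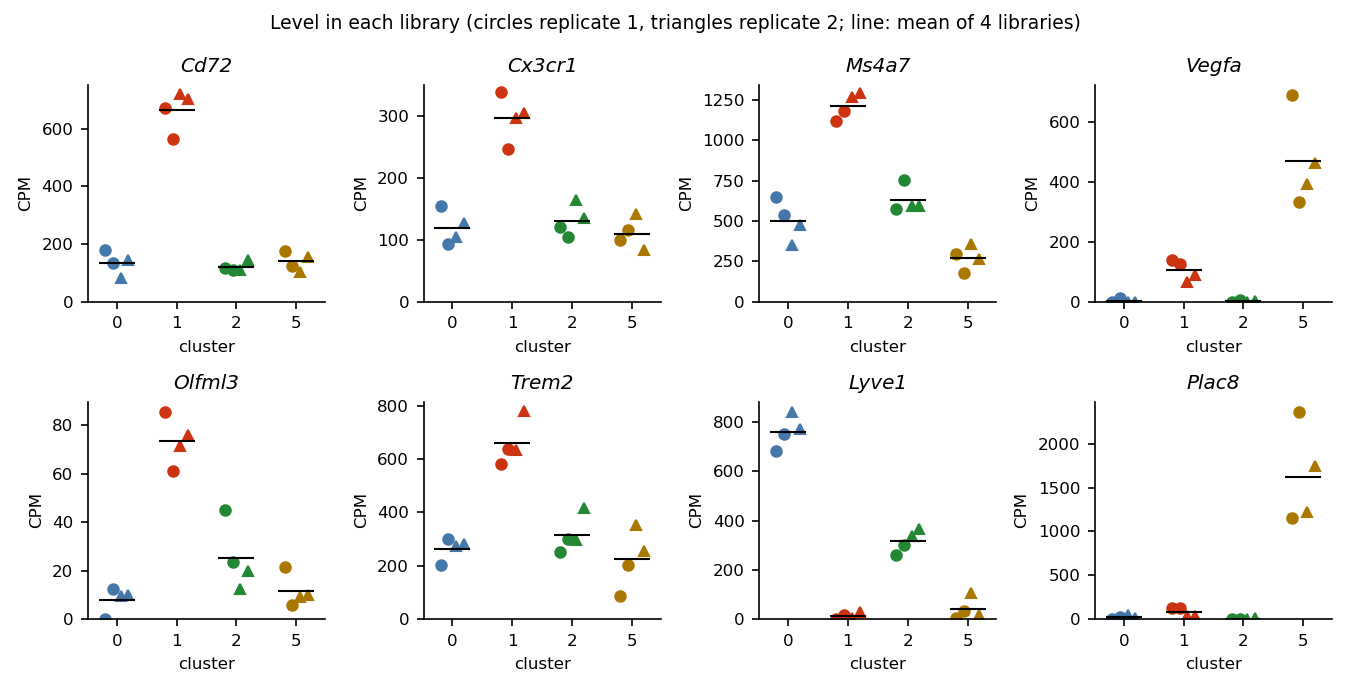
Level (CPM, vertical axis) of 8 genes in clusters 0, 1, 2 and 5, with 1 point for each library (circles, replicate 1; triangles, replicate 2) and a line at the mean of the 4 libraries. Cd72 lies between 564 and 721 CPM in cluster 1 and at 179 CPM or less elsewhere, Vegfa is highest in cluster 5, and Plac8 differs between the replicates of cluster 1.

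Per cell, the markers were frequent but not universal. After each cell was thinned at random to 2000 UMIs, which kept 521 cells and left out 22, Cd72 had a UMI in 58.2% of cluster 1 cells (exact 95% interval 53.8 to 62.4). The share was 17.9% in cluster 0, 20.2% in cluster 2 and 13.5% in cluster 5. Cluster 7, the neutrophil-rich cluster with a median of only 1601 UMIs, had Cd72 in 11.4% of 44 cells. Thinning left out its other 81 cells. It is shown for comparison and gives no level of free RNA, since Lyve1 was more frequent in it than in cluster 1. Ms4a7 was seen in 78.5% of cluster 1 cells and 22.7% of cluster 7 cells, and Cx3cr1 in 39.3% and 9.09%. Vegfa was seen in 13.8% of cluster 1 cells, 0.826% of cluster 0 cells, 0.593% of cluster 2 cells and 37.5% of cluster 5 cells. Neutrophils express Vegfa themselves, and cluster 7 had it in 20.5% of cells, so it gives no background for this gene either. Of the 521 cells, 27 had none of the 4 markers, 146 had 1, 211 had 2, 127 had 3 and 10 had all 4.

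A small group of genes was called higher in cluster 1 than in each of clusters 0, 2 and 5: 38 of 8006, or 0.475%. By role they were receptors and other surface proteins (Cd207, Cadm1, Cd72, Cxcr3, Spn, Fcgr4, Cx3cr1, Trem2, F11r, Itga6, Slamf9, Tmem119, Tgfbr1), secreted factors (Tgfb3, Ccl5, Mmp12, Tnfsf13b, Olfml3, Lpl, Pdgfb), and others of mixed roles. The latter included Zmynd15, Cdk18, Apbb2, Glipr1, Tmx4, Ckb, Plxdc2, AW112010, Nes, Sh2d1b1, Nav2, Myo1e, Cpd, Slc37a2, Kcnn4 and 1700025G04Rik. With DESeq2 in place of edgeR, 19 genes passed, all among the 38, and without library 1-2 there were 30, of which 25 were among them. Zmynd15 overlaps Cxcl16 on the opposite strand, and reads of the pair can be told apart only if counting used the strand.

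Surface proteins of this group differed in how low they were in the background clusters. Cadm1, an adhesion molecule (chr9:47530173-47857637), had 32.9, 46.6, 67.0 and 58.1 CPM in libraries 1-1, 1-2, 2-1 and 2-2. In clusters 0, 2 and 5 it had 2.66 ± 0.874, 6.08 ± 0.799 and 4.77 ± 1.08 CPM, and no background library reached the lowest library of cluster 1. Its log2 fold change against their mean was 3.69 ± 0.25. Cd207, the C-type lectin langerin known from Langerhans cells, had 86 UMIs in 26 cells of cluster 1. It had 0 UMIs in clusters 0 and 2, which puts cluster 1 at least 28.8-fold and at least 15.0-fold higher against a limit of 3 counts over each cluster. Cluster 5 had 2 UMIs, a ratio of 20 with a counting interval of 5.37 to 168. Cxcr3, a chemokine receptor best known from T cells, had 12.2 to 16.9 CPM in the 4 libraries of cluster 1 and 0 UMIs in cluster 5, at least 7.43-fold higher by the same limit. The Fc receptor gene Fcgr4 had 182 ± 48.3 CPM against 58.1, 55.8 and 81.3 CPM in clusters 0, 2 and 5, a log2 fold change of 1.58 ± 0.12.

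Secreted factors formed the other large class. Mmp12 (chr9:7344381-7369499) had 43.9, 334, 288 and 129.5 CPM across the 4 libraries of cluster 1 and at most 15.8 CPM in any library of clusters 0 and 2. Library 1-1 of cluster 1 lay within the range of cluster 5, 8.67 to 114 CPM, so those groups overlapped. Its UMIs came from 70 cells and 23.9% of them from 1 cell, and the log2 fold change against the mean was 4.04 ± 0.18. Lpl, lipoprotein lipase, had 112, 329, 222 and 289 CPM, and its range overlapped those of clusters 2 and 5. Pdgfb, a growth factor for smooth muscle cells, had 89.8 to 193 CPM against at most 82.9 CPM in any background library. Tgfb3 had 15.5 to 25.9 CPM against at most 5.94 CPM, and Tnfsf13b, the B cell survival factor BAFF, had 30.2 to 43.6 CPM against at most 14.4 CPM.

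**Figure D2:**
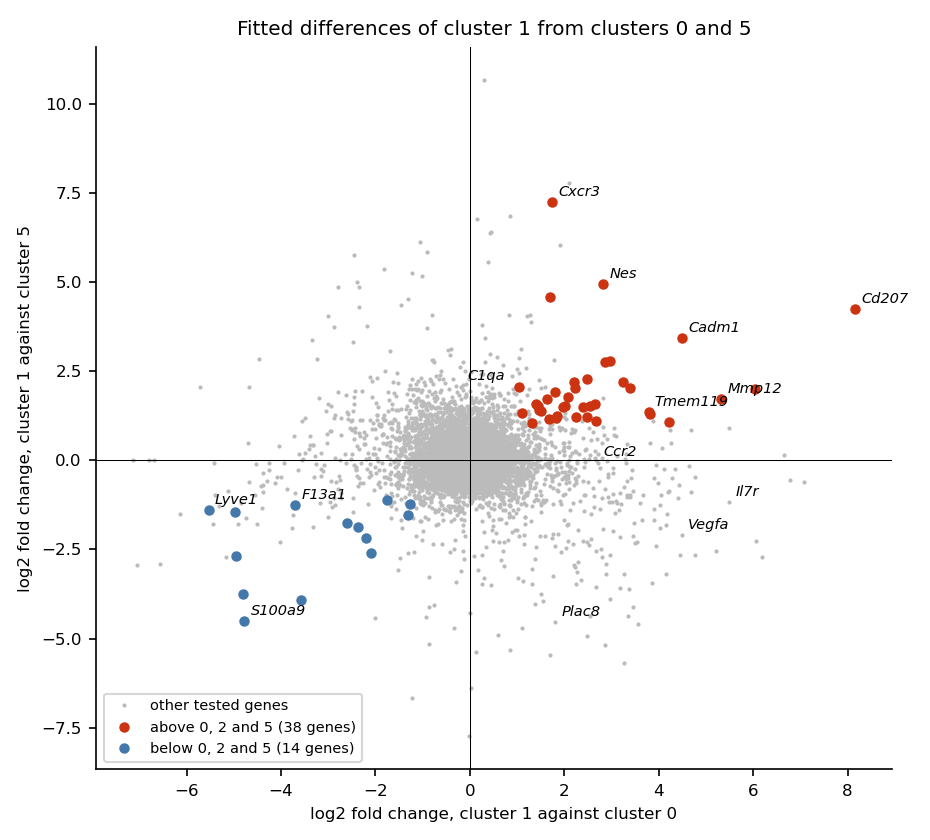
Log2 fold change of each tested gene in cluster 1 against cluster 0 (horizontal axis) and against cluster 5 (vertical axis). Red points are the 38 genes called above clusters 0, 2 and 5, blue points the 14 called below all of them, and grey points the rest.

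Genes known from microglia, the resident macrophages of the brain, were among these 38. They include Cx3cr1, after which the cluster is named. In a list of 13 tested microglia-type genes, 6 were higher than the background mean (among them Trem2, Cx3cr1, Tgfbr1, Olfml3 and Tmem119) and 2 were lower (Siglech, P2ry13). Over all genes, 3.21% were higher and 1.82% lower, and the median log2 fold change was 0.59 for the list against 0.04. Against cluster 0, 6 of the list were higher and 4 lower, beside 6.40% and 6.91% of all genes. Against cluster 2 they were again 6 and 4, beside 4.46% and 4.96%. Against cluster 5, 8 were higher and 0 lower, beside 3.95% and 3.60%. Trem2, a lipid-sensing receptor, had 669.8 ± 65.3 CPM against 279, 327 and 232 CPM in clusters 0, 2 and 5. Olfml3 had 61.3 to 85.5 CPM against at most 45.2 CPM, a log2 fold change of 2.48 ± 0.18. Tmem119 had 74.6, 49.8, 22.8 and 47.2 CPM in the 4 libraries, and its lowest library lay within the range of cluster 5. The list did not move as 1 block. Its 15 measured members summed to 3055 and 3322 CPM in the 2 replicates of cluster 1. Cluster 0 had 2637 and 2875 CPM, cluster 2 had 2912 and 2947, and cluster 5 had 1276 and 1367. P2ry12, a purinergic receptor of microglia, had 20.5 ± 5.38 CPM and was lower than in clusters 0 and 2, with log2 fold changes of -1.51 and -1.04. Siglech, a microglial lectin, had 2.28 ± 1.54 CPM against 50 ± 26.7 CPM in cluster 0.

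Fewer genes, 14 of 8006 or 0.175%, were called lower in cluster 1 than in each background cluster. They were S100a9, Kif23, Ms4a4a, Ednrb, Tfec, Trim30c, Hes1, Thbd, Ccl24, Lyve1, Hcar2, F13a1, Ier3 and Add3. Ednrb, an endothelin receptor, had at most 4.84 CPM in any library of cluster 1 against 112 ± 0.937, 42.5 ± 13.2 and 21.2 ± 11.1 CPM in clusters 0, 2 and 5. Hes1, a transcriptional repressor downstream of Notch, had 8.88 ± 0.783 CPM, with a log2 fold change of -2.16 ± 0.23. Thbd, thrombomodulin, had 13.9 ± 6.14 CPM, with a log2 fold change of -2.55 ± 0.21. S100a9, a neutrophil protein, had 2 UMIs in the whole of cluster 1, and its level in the background libraries ranged from 0 to 108 CPM.

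All 10 resident macrophage markers tested were lower in cluster 1 than in the background mean, and all 10 were lower than in clusters 0 and 2. Over all genes, 1.82% were lower than the mean, and 6.91% and 4.96% lower than in clusters 0 and 2. The median log2 fold change of the list was -2.68 against the mean, -3.89 against cluster 0 and -3.43 against cluster 2, while that over all genes tested was 0.04, 0.01 and 0.03. Lyve1, a hyaluronan receptor, had 0, 17.2, 4.57 and 29.1 CPM in libraries 1-1, 1-2, 2-1 and 2-2. The libraries of cluster 0 had 682 to 840.3 CPM and those of cluster 2 had 261 to 364 CPM, far above all 4 values. Lyve1 was seen in 1.15% of thinned cluster 1 cells, 52.6% of cluster 0 cells, 31.8% of cluster 2 cells and 2.5% of cluster 5 cells. Cluster 7 had it in 18.2% of cells, and so gives no background for this gene or for the markers above. Cd163, the haemoglobin scavenger receptor, had 17 ± 4.62 CPM against 639 ± 53.4 in cluster 0 and 426 ± 7 in cluster 2. Against cluster 5 the list was mixed, with Pf4 higher (1.29 ± 0.13) and Lyve1 and F13a1 lower.

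The summed level of the resident list was 983 and 1274 CPM in the 2 replicates of cluster 1, close to the 598 and 1063 CPM of cluster 5, and 8597 and 10003 CPM in cluster 0. At 3 or more UMIs of the list, 51.4% of cluster 1 cells and 97.0% of cluster 0 cells counted as positive without thinning. General macrophage markers placed cluster 1 nearer to clusters 0 and 2. Of 10 tested, with a median log2 fold change of 0.07 against the mean, none was called there or against either of those clusters. Against cluster 5, 5 were higher (Mertk, Adgre1, C1qa, C1qb, C1qc), beside 3.95% of all genes. C1qa, a chain of complement C1q, had 6086 ± 109 CPM in cluster 1 against 7604 in cluster 0, 6992 in cluster 2 and 1461 in cluster 5.

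**Figure D3:**
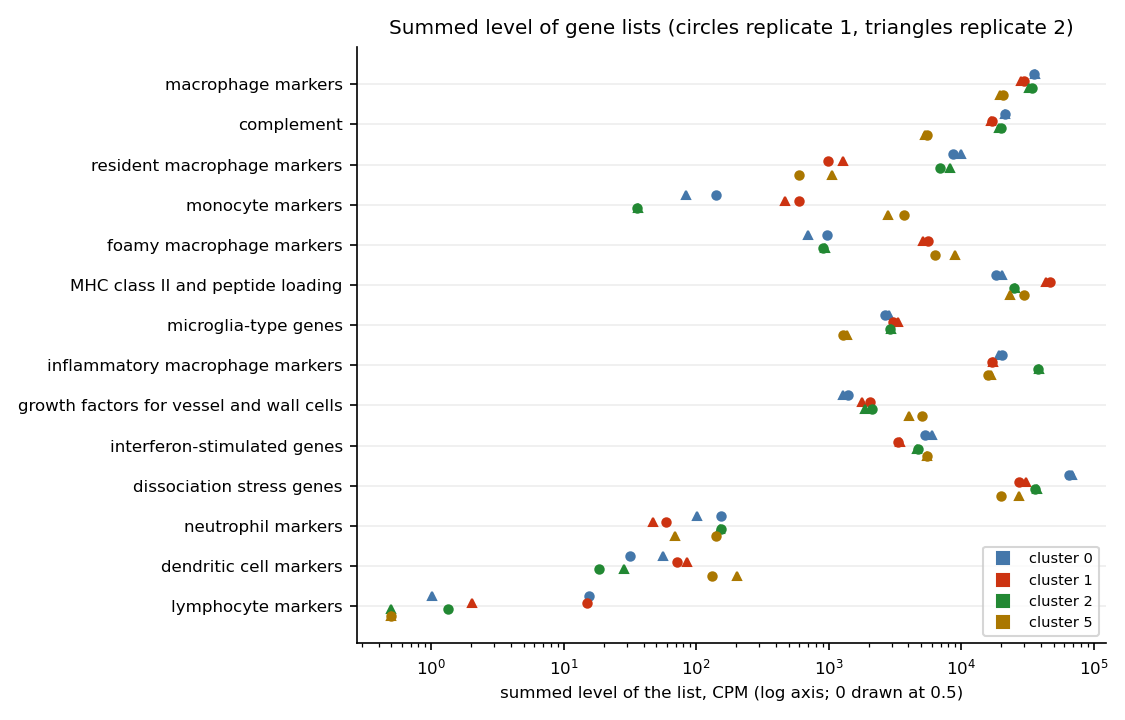
Summed level (CPM, log axis) of each gene list in the 2 biological replicates of clusters 0, 1, 2 and 5. Cluster 1 lies near cluster 5 for resident and foamy markers, at 983 and 1274 CPM and at 5594 and 5129 CPM, and between cluster 5 and clusters 0 and 2 for monocyte markers.

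The summed level of monocyte markers was intermediate in cluster 1. The summed list had 596 and 465 CPM in the 2 replicates. Cluster 0 had 141 and 83.6 CPM, cluster 2 had 35.9 and 36.4 CPM, and cluster 5 had 3715 and 2815 CPM. Of 9 tested, 4 were higher than in cluster 0 and 4 higher than in cluster 2, and none was called lower there. Against cluster 5, 8 were lower. Over all genes, 6.40% and 4.46% were higher than in clusters 0 and 2, and 3.60% were lower than in cluster 5. The list had a median log2 fold change of 1.8 against cluster 0, 3.31 against cluster 2 and -4.92 against cluster 5. Over all genes the medians were 0.01, 0.03 and 0.02. Ccr2 and Chil3 were higher than the mean of logs, although Chil3 had 11.5 CPM in cluster 1 and 285 CPM in cluster 5. Ccr2 had 419, 428, 399 and 407 CPM in cluster 1, against 73.0 CPM in cluster 0 and 28.4 CPM in cluster 2. It was the member not called against cluster 5, with 443 CPM there and a log2 difference of -0.06. Ccr2 made up most of the summed list in cluster 1 and a small part of it in cluster 5. Ly6c2, the surface antigen of classical monocytes, had 8.63 CPM in cluster 1 and 358 CPM in cluster 5. Counting 3 or more UMIs of the list, 33.1% of cluster 1 cells were positive, against 6.14% in cluster 0, 2.31% in cluster 2 and 88% in cluster 5.

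Foamy macrophage markers were higher in cluster 1 than in clusters 0 and 2, at sums below those of cluster 5 and far below those of cluster 8. All 10 were higher than in clusters 0 and 2, where 6.40% and 4.46% of all genes were, and 9 of 10 were higher than the mean, where 3.21% were. The median log2 fold change of the list was 1.89 against the mean and -0.54 against cluster 5, beside 0.04 and 0.02 over all genes. Cluster 1 had sums of 5594 and 5129 CPM, cluster 0 had 965 and 697, cluster 2 had 909.8 and 939, cluster 5 had 6300.4 and 8912, and cluster 8 had 43025 and 44009. Against cluster 5 the list split, with Trem2, Lpl and Mmp12 higher and Fabp5 and Gpnmb lower. Over all genes, 3.95% were higher and 3.60% lower there. Spp1, osteopontin, had 625, 1304, 590.4 and 904 CPM in cluster 1 and was higher than the background mean by 2.66 (log2). Cd9, a tetraspanin, had 607 ± 126 CPM against 80.0, 116 and 379 CPM in clusters 0, 2 and 5, a log2 fold change of 2.06. In a list of 20 cholesterol and lipid genes, Olr1, Lpl, Abcg1 and Fabp4 were higher than the mean and Cd36 was lower. The shares of all genes were 3.21% and 1.82%. Cd36 had 45.3 ± 5.85 CPM against 275 CPM in cluster 0.

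Many genes set clusters 1 and 5 apart from clusters 0 and 2. Of the 8006 genes, 167 were higher than in clusters 0 and 2 without a call against cluster 5, and 245 were lower in the same way. A further 62 were higher than in clusters 0 and 2 and lower than in cluster 5, and 33 the reverse, while 189 were higher and 153 lower against cluster 5 only. A missing call against cluster 5 does not show an equal level. Il7r, the interleukin-7 receptor, had 81.4 ± 3.15 CPM in cluster 1, against 1.84 in cluster 0, 3.97 in cluster 2 and 186 in cluster 5, and was called lower than in cluster 5 by a log2 fold change of -1.18. Itgax, the integrin CD11c, had 56.9 ± 7.25 CPM against 3.32, 1.65 and 81.0 CPM in the same order. Dusp5, a phosphatase of the ERK pathway, had 111 ± 20.2 CPM against 5.42 in cluster 0, 34.7 in cluster 2 and 181 in cluster 5. Havcr2, the inhibitory receptor TIM-3, had 49.2 ± 5.68 CPM against 6.03, 7.52 and 82.7 CPM, and Il1b, interleukin-1 beta, had 3137 ± 396 CPM against 240.1, 1393 and 6212 CPM.

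Receptors of the Cd72 kind were examined as a list. Of 19 genes tested in a list of inhibitory receptors, their partners and their phosphatases, Cd72, Sema4d, Clec12a and Pilra were higher than the background mean and Cd200r1 was lower, with a median log2 fold change of 0.25 against 0.04 over all genes. Sema4d, which encodes a ligand of Cd72, had 115 ± 8.19 CPM in cluster 1 against 23.8 ± 6.92 in cluster 0, 27.2 ± 1.02 in cluster 2 and 119.8 ± 6.73 in cluster 5. Clec12a, an inhibitory lectin, had 280.1 to 349 CPM in the 4 libraries against at most 246 CPM in any background library, and its difference of 0.63 from cluster 2 was under the fold threshold. For comparison, 3.21% of all genes were higher than the mean and 1.82% lower. Among 9 chemokine receptors, Cxcr3, Ccr2 and Cx3cr1 were higher and Ccr1 was lower. Among 19 chemokine ligands, Cxcl9, Ccl5 and Cxcl14 were higher and Ccl24, Ccl8, Pf4, Ccl6 and Ccl2 were lower. Cxcl9 rested on 39 UMIs in 8 cells, of which 48.7% came from 1 cell.

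Growth factors for cells of the vessel wall formed another list. Of 16 tested, Thbs1, Pdgfb, Areg, Mmp14 and Vegfa were higher than the mean of logs and Hbegf was lower. Against cluster 5 alone, however, 4 were higher and 4 lower. Over all genes, 3.21% were higher and 1.82% lower than the mean. The shares of all genes against cluster 5 were 3.95% and 3.60%. The list summed to 2062 and 1772 CPM in cluster 1, below cluster 2 at 2129 and 1876 CPM and cluster 5 at 5063 and 4058 CPM, and above cluster 0 at 1390.4 and 1287 CPM. Areg, amphiregulin, had 129 ± 1.64 CPM in cluster 1 against 5.01 in cluster 0, 81.1 in cluster 2 and 182 in cluster 5. Thbs1, thrombospondin-1, had 203 ± 104 CPM against 17.9 and 15.9 CPM in clusters 0 and 2 and 2066 ± 549.5 CPM in cluster 5. Among 26 lineage transcription factors, Bhlhe40 was higher than the mean of logs, a share near the 3.21% of all genes, and Tfec, Spic and Maf were lower. Bhlhe40 was also lower than in cluster 5, with a log2 fold change of -2.14. Maf, which is typical of resident macrophages, had 136 ± 34.5 CPM against 739 CPM in cluster 0 and 400.3 CPM in cluster 2. The 16 hypoxia and glycolysis genes had a median log2 fold change of 0.14 and no call in the same comparison.

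Immediate-early and heat-shock genes, which can rise during tissue dissociation, took 2.75% and 3.08% of UMIs in the 2 replicates of cluster 1. Cluster 0 had higher shares, 6.51% and 6.89%. Cluster 2 had 3.6% and 3.7%, and cluster 5 had 2% and 2.73%. Of 15 stress genes tested, 10 were lower than in cluster 0, where 6.91% of all genes were, among them Jun at 1565 ± 231 CPM against 7623 ± 634 CPM. The part of this difference in the other calls against cluster 0 was not tested. Ribosomal genes took 13.1% and 13.2% of UMIs in cluster 1, against 9.74% and 10.7% in cluster 0.

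Few cells of cluster 1 carried markers of other lineages. Counting 3 or more UMIs of a list, 3 cells were positive for lymphocyte markers, 6 for neutrophil markers, 14 for stroma and vessel markers, 10 for proliferation markers and 26 for dendritic cell markers. Leaving out the 34 cells positive for lymphocyte, neutrophil, stroma or proliferation lists or rich in haemoglobin, with the like cells of the background, gave 39 genes above all 3 clusters, 36 of them among the 38. Of 7078 haemoglobin UMIs in cluster 1, 7000 lay in 1 cell.

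Few genes were called between the 2 biological replicates of cluster 1. With 4 libraries, a missing call does not show an equal level. Ccl5 and Cxcl10, with log2 differences of -1.41 and 1.14, were not called. Among 6187 genes tested over the 4 libraries, 2 were called at an adjusted p under 0.05 by edgeR (0.0323%), both lower in replicate 2. Plac8, a monocyte gene, had 123 and 121 CPM in libraries 1-1 and 1-2 and 33.5 and 37.5 CPM in 2-1 and 2-2, a log2 difference of -1.76 ± 0.23 (adjusted p = 0.00854, edgeR). Its UMIs came from 27 cells, 20.6% of them from 1 cell. AW112010, a long RNA induced in immune activation, had 178 and 198 CPM against 76.1 and 70.2 CPM, a log2 difference of -1.37 ± 0.20 (adjusted p = 0.0226, edgeR). The replicates did not overlap for either gene, but the test on these same libraries picked both genes, so this adds no support. No gene was called higher in replicate 2, and at an unadjusted p under 0.05 there were 148 higher and 130 lower. DESeq2 called 0 higher and 2 lower. The counts of higher and lower calls rested on single libraries: they were 10 and 10 without library 1-1, 3 and 7 without 1-2, 0 and 0 without 2-1, and 15 and 11 without 2-2, where the lone library of a replicate is assumed to vary like the other pair.

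RNA for antigen presentation by MHC class II, which shows peptides to helper T cells, varied widely between the cells of cluster 1. As a whole the cluster was rich in it. The list summed to 46825 and 43379.6 CPM in its 2 replicates. Cluster 0 had 18373 and 20272 CPM, cluster 2 had 25001 and 25478, cluster 5 had 29557 and 23527, and cluster 4 had 65331 and 63505. Of 7 genes tested, Ciita, the master regulator of the class, and H2-Eb1 were higher than the background mean, beside 3.21% of all genes. H2-Ab1, H2-Aa and Cd74 missed the call only by the fold threshold, with log2 fold changes of 0.99, 0.98 and 0.96. Against cluster 0, 6 of the 7 were higher, beside 6.40% of all genes. Against clusters 2 and 5 the counts were 2 and 0, beside 4.46% and 3.95%. H2-Eb1 had 8825 ± 576 CPM against 3387, 4128 and 4794 CPM in clusters 0, 2 and 5, a log2 fold change of 1.18 ± 0.08. The H2 genes are close relatives whose reads the counting could split, so single members are uncertain.

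Single cells were spread from none to very high. At 2000 UMIs per cell, the sum of H2-Aa, H2-Ab1, H2-Eb1 and Cd74 had a median of 97 UMIs in cluster 1, with quartiles of 27 and 143 and a maximum of 269. Of the 521 cells, 121 or 23.2% had under 20 UMIs, 38 had none, and 32 lay between 10 and 29 UMIs, near the line of 20. The share under 20 was 18.9% in library 1-1, 22.2% in 1-2, 19.5% in 2-1 and 28.0% in 2-2, so all 4 libraries held such cells. Cluster 0 had 49.8% of cells under 20, cluster 2 had 41.8%, cluster 5 had 49.0% and cluster 4 had 2.22%. Within each library the 4 genes went up and down together, with pairwise correlations over cells of 0.91 to 0.97, as a description of cells that share a library and a fixed depth.

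**Figure D4:**
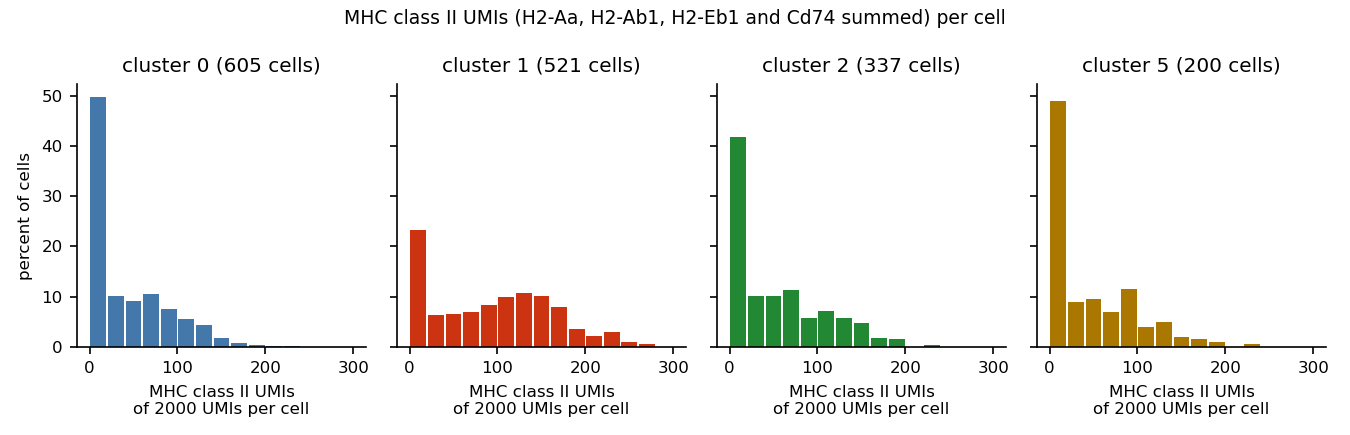
Percent of cells (vertical axis) by their MHC class II UMIs out of 2000 (horizontal axis, bins of 20) in clusters 0, 1, 2 and 5. Cluster 1 has a median of 97 UMIs and a pile of 121 cells under 20, while cluster 0 has a median of 20.

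The line of 20 UMIs was chosen after the values were seen, and it cuts a range and defines no cell type. Correlations with the MHC class II sum, taken over cells within each library and then averaged, were -0.3 or lower for 19 of 1306 genes and 0.3 or higher for 10. Cd9 had the values -0.68, -0.41, -0.44 and -0.62 in libraries 1-1, 1-2, 2-1 and 2-2. In CPM without the MHC class II UMIs in the total, Cd9 stood at 1371 in cells under 20 and 322 in the others. Spp1 stood at 2207 against 340.4, Lgals3, galectin-3, at 4874 against 1235, and Capg, an actin-capping protein, at 638 against 179. Igf1, an insulin-like growth factor, stood at 480.4 against 161, and Gpnmb at 166 against 29.2. The foamy list as a whole had a median of 14 UMIs in cells under 20 and 4 in the others. With all UMIs in the total, its level of 10702 CPM in cells under 20 compares with 43025 and 44009 CPM in cluster 8.

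Cells with more MHC class II had more of several monocyte-linked genes, more of the resident macrophage list, and also more dissociation stress RNA. The stress list stood at 30881 CPM and a median of 47 UMIs in them, against 23752 CPM and 37 UMIs in cells under 20. Fosb stood at 1552 against 663 CPM, and the part of this stress RNA in the other differences was not tested. Levels of lists keep the MHC class II UMIs in the total, while levels of single genes leave them out. Ccr2 stood at 513 CPM in cells with 20 or more and at 133 in cells under 20, Ms4a6c at 606 against 141, and Plac8 at 85.1 against 0. The resident macrophage list also stood higher with 20 or more, at 1241 CPM against 888 CPM, and its member Mrc1 at 515 against 145. The sum of the dendritic cell list went the other way, at 80 CPM in cells with 20 or more and 132 in cells under 20. Most of that sum was Itgax, at 59.8 against 128. The other members had few UMIs on either side, so the sum does not give their direction. Clec4b1, a C-type lectin, stood at 187 against 4.14, and H2-DMa and H2-DMb1, which load peptide on MHC class II, at 695 against 82.8 and 695 against 66.3. Ciita stood at 46.5 against 4.14. The markers of the cluster were present on both sides, with Cd72 at 915 CPM in cells under 20 and 630.2 in the others, Cx3cr1 at 335 against 289.8, and Ms4a7 at 1528 against 1263. Vegfa stood at 53.8 against 130.3, and at 0 in the cells under 20 of library 2-1. C1qa was close on both sides, at 6278 and 6424 CPM. Median total depth before thinning was 5643 UMIs in cells under 20 and 5114 in the others, and the correlation of log depth with the MHC class II sum was -0.09. No test was made, since the cells were split by their own counts.

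**Figure D5:**
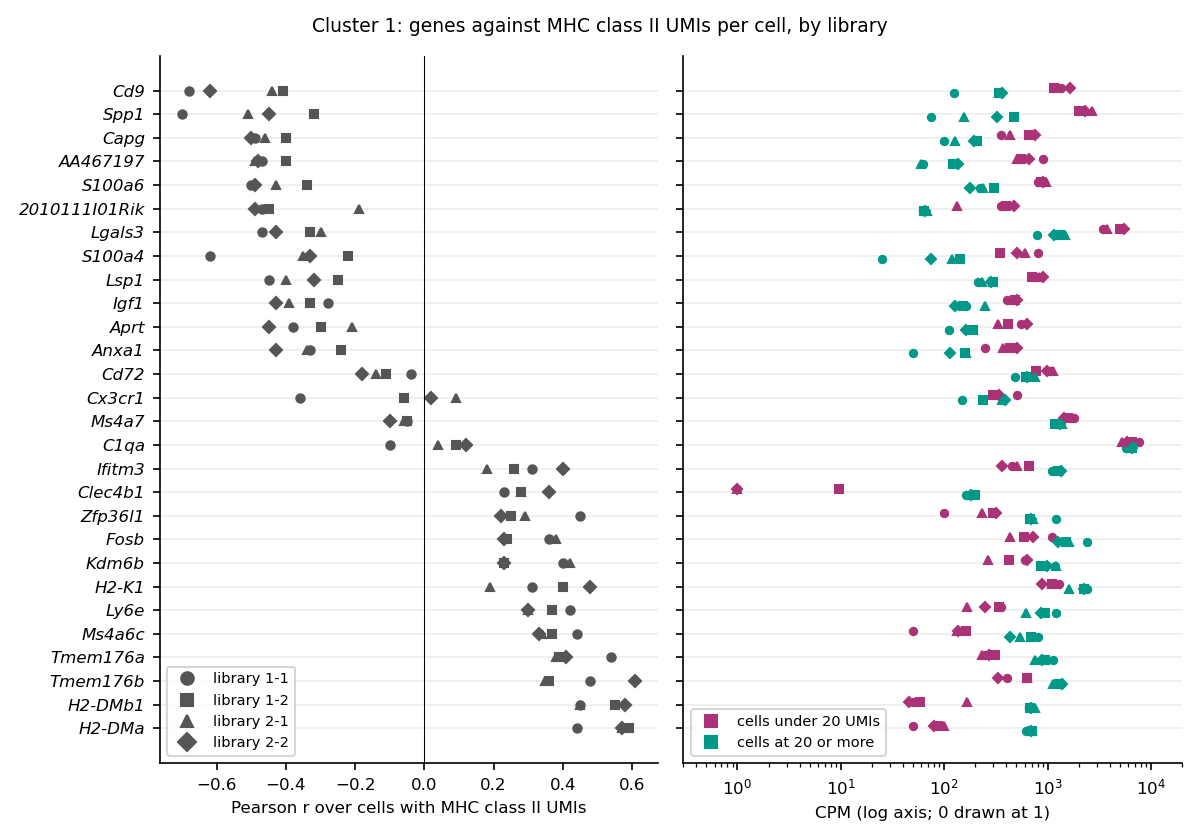
Left, correlation over cells between a gene and the MHC class II sum, 1 point for each library of cluster 1. Right, level of the same genes (CPM, log axis) in cells with under 20 and with 20 or more MHC class II UMIs of 2000, again by library. Cd9, Spp1 and Lgals3 are higher in cells under 20, and Ms4a6c and Clec4b1 in the others.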

How the data were processed

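Live CD45+ cells from atherosclerotic aortas were profiled by 3′ droplet single-cell RNA sequencing. Reads were mapped to mm10 with Cell Ranger 3.0.2, per the labels' protocols, and Seurat 3.1.1 is named in the submitters' processing notes. The authors deposited a table of raw UMI counts for 18825 genes and 3002 myeloid cells, the natural log of 1 plus counts scaled to 10000 per cell, and for each cell its library, its count totals, its percent of mitochondrial UMIs and its cluster number. The sources used here do not say how cells were filtered or whether doublets were removed, and no doublet caller was run. The log table was used only to check the counts, and count totals matched the annotation in all 3002 cells.

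Raw counts were summed by cluster and biological replicate, giving 8 sums for clusters 0, 1, 2 and 5, and tested with edgeR 4.0.16 (R 4.3.3) after filterByExpr and TMM scaling, with the biological replicate as a block and 3 residual degrees of freedom. The block is used because cells of all clusters in a replicate come from the same animals. Replicates of cluster 1 were compared over its 4 library sums. Libraries of 1 biological replicate may share animals, and nothing states that they come from separate ones, so that test may measure technical spread only. On simulated counts, changes of log2 size 2 were recovered in 98.5% of 200 genes for the cluster comparison (7788 genes run, 2 false calls). For the replicate comparison they were recovered in 89.6% of 192 genes (6582 genes run, 8 false calls). The changes were placed in the more abundant genes, with the same set spread for all genes, not taken from the data. Recovery of smaller changes and of genes with few UMIs was not examined. Thinning drew 2000 UMIs per cell at random. Intervals (exact binomial, 95%) and limits of 3 counts cover counting error only. Python 3.11.15, numpy 2.4.6, pandas 2.3.3 and scipy 1.17.1 were used.

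Of 18825 gene names, 18118 matched GENCODE M21, which gave the coordinates on GRCm38, the assembly of mm10. Named genes were, for the mean comparison, the 16 highest and 10 lowest called genes at 50 CPM or more on the higher side with no cell above 20% of UMIs, and the 6 highest and 4 lowest by the same rule for each single comparison. From each gene list up to 5 called members and 2 members without a call were added. Genes above or below all 3 background clusters, genes with few UMIs and genes of the MHC class II comparison were chosen after their values were seen. The cluster and the gene lists were chosen with earlier results of these data known. Alternatives covered the normalization, the tool, the count filter, the block, the unit summed, the depth, the deepest cells and each library or replicate left out, and, chosen after seeing the data, the removal of cells with markers of other lineages. A small number of genes are not reported here.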

Additional observations from a re-analysis of the deposited data

Results flagged for a closer look

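Of 39 values examined over the 4 libraries of cluster 1, 2 had a library far from the others, and chance alone flags about 1 in 20 groups. Ccl24, eotaxin-2, had 20.6 CPM in library 2-2 and 4.39, 3.27 and 1.52 CPM in libraries 1-1, 1-2 and 2-1. It had 24 UMIs in the cluster, 50% of them in 1 cell. Cd209f, a lectin of resident macrophages, had 19.4 CPM in library 2-2 and 0, 0 and 1.63 CPM in the other libraries. It had 18 UMIs, 83.3% of them in 1 cell.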

How the results depend on the processing

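Across 183 gene values, 2381 recomputed values kept direction and side of the threshold, 89 lost the call, 8 gained one and 6 changed sign. Sign changes were those of Clec4a3 (-0.02) and Ctsb (-0.01) at 2000 UMIs per cell, of Ctsb (-0.03), Fcgr1 (-0.01) and Ly6c2 (0.56) without library 1-2, and of Plin2 (0.05) without library 2-2. Leaving out 1 library gave ranges of -0.03 to 0.06 for Ctsb, -0.01 to 0.11 for Fcgr1, -1.75 to 0.56 for Ly6c2 and -0.15 to 0.05 for Plin2. None of these genes was called against the mean with all libraries. Fabp4, Chil3, Cd200r1, Cd80, Cd209a and Ifit1 lost their calls most often. Without the replicate block, 253 genes were higher and 133 lower than the mean, and 36 stood above and 12 below all 3 clusters. Cd209a, Cd80, S100a8 and Vsig4 lost their calls there, and the block changed no other call of a named gene.

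With DESeq2, 167 genes were higher than the mean, 348 lower than in cluster 0, 201 higher than in cluster 2, 164 higher and 191 lower than in cluster 5, and 19 above all 3. Testing only genes at 50 CPM gave fewer calls by construction, with 119 higher and 90 lower than the mean, 249 and 268 against cluster 0, 176 and 209 against cluster 2, 184 and 142 against cluster 5, 24 above all and 9 below all. At 2000 UMIs per cell, 83 were lower than the mean, 331 higher and 360 lower than in cluster 0, 218 and 225 against cluster 2, and 6 below all. Sums of the 16 libraries gave 171 higher than the mean, and a fit of all large clusters gave 9 below all. The replicate comparison called 18 higher and 13 lower with no low-count filter, 1 lower at 2000 UMIs and 1 lower without the deepest 5% of cells. Where no cause is stated for these moves, the cause was not tested.

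Leaving out 1 library at a time gave 188 to 229 genes higher and 100 to 148 lower than the mean, 392 to 465 and 363 to 553 against cluster 0, 234 to 334 and 270 to 401 against cluster 2, and 224 to 303 and 230 to 277 against cluster 5. The lowest values for cluster 0 lower and cluster 2 higher, 363 and 234, came without library 1-2. Between 30 and 42 genes then stood above all 3 clusters and between 9 and 12 below, with 9 without library 2-2. The replicate comparison gave 0 to 15 higher and 0 to 11 lower. As a mean of library shares with equal weight, cluster 1 held 17 to 19.7% of cells without 1 library. By the same mean it held 22.8% of cells with at least 2000 UMIs and 32.2% of the cells of clusters 0, 1, 2 and 5. Shares of cells with a UMI followed depth. At 1000 UMIs they were 40.8% for Cd72, 22.3% for Cx3cr1, 60.9% for Ms4a7 and 8.86% for Vegfa, and without thinning 75.9%, 63.7%, 90.4% and 21.2%. Only 2 biological replicates stand behind every comparison of clusters, and genes with few UMIs, such as Cxcl9 and S100a9, are the least secure.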
